A study of Mus musculus with 2 samples.

Results

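Osteopontin, encoded by Spp1, and the surface receptors that bind it are described here in pancreatic tumors of mice, as 9 genes out of the 19465 features measured. They were taken by symbol: the ligand Spp1, the receptor Cd44 and the 7 integrin chains Itgav, Itgb1, Itgb3, Itgb5, Itga4, Itga5 and Itga9, and all 9 were found in both libraries. The tumors were orthotopic allografts in the pancreas grown from KPC cells, a line derived from pancreatic tumors of genetically engineered mice. One library, labelled KPC-shV, came from tumor tissue of cells with the control vector, and the other, labelled KPC-shZEB1, from cells in which Zeb1, a transcriptional repressor, was targeted by a short hairpin RNA. Both cell populations were drug-selected after lentiviral infection, and the hairpin acts in the injected cells only, so that the host cells of a tumor keep an intact Zeb1. The labels name no drug treatment of the mice. The paper reports gemcitabine treatment for the tumors of its single-cell sequencing and states that the spatial data came from the same tissues. By that account the tumors of both libraries were treated with gemcitabine. Neither the age nor the strain of these mice is in the labels. The labels state 2 tumors per group, but 1 library per group was analysed here and its tumor is not stated, so that no difference between groups had a replicate check and no p-value is given. Gene expression was measured on sections with Visium CytAssist, in which probes for each gene are captured on a grid of barcoded spots and counted by unique molecular identifier (UMI). Each spot covers a small patch of tissue, which may contain several cells and more than 1 cell type.

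Osteopontin is a secreted, phosphorylated glycoprotein of the extracellular matrix and of body fluids. It is made by ductal epithelium, by many carcinomas, by activated macrophages and by bone cells, and it acts on adhesion, migration and immune cells. Cd44 is a hyaluronan receptor that also binds osteopontin and is found on tumor cells and on most leukocytes. Integrins are pairs of an alpha and a beta chain. The alphav chain (Itgav) pairs with beta3 (Itgb3) or beta5 (Itgb5), and the alpha5 chain (Itga5) with beta1 (Itgb1), to bind an RGD motif that osteopontin shares with fibronectin and vitronectin. The alpha4 (Itga4) and alpha9 (Itga9) chains, also paired with beta1, bind a neighbouring site that is exposed when thrombin or matrix metalloproteinases cut osteopontin. The study paired tumor-derived Spp1 with Cd44 on neutrophils, and the comparisons below ask how the level of the ligand and of each receptor differed between the libraries and among spots rich in epithelial, macrophage, neutrophil and hypoxia genes.

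Because Zeb1 represses promoters through E-boxes of the sequence CACCTG, and because hypoxic spots were compared, the bases before the start of each gene were searched on both strands for CACCTG, for ACGTG (the core of the hypoxia response element) and for TGACTCA (AP-1). Of the members, 8 had an entry in the RefSeq promoter table of GRCm38.p6, with 9 start sites in all, and the 250 bases before each start were read. The windows of Spp1 (chr5:104434861-104435110, plus strand), Cd44 (chr2:102901666-102901915, minus strand) and Itgb5 (chr16:33829415-33829664, plus strand) are shown because they hold a match and belong to the ligand, its receptor and an integrin chain that differed between the libraries. Capitals mark the match.
Spp1: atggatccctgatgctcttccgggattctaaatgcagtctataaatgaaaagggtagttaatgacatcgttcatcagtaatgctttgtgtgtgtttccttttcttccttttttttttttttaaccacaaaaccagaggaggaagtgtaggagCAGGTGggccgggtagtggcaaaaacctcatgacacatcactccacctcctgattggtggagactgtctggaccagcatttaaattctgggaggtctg
Cd44: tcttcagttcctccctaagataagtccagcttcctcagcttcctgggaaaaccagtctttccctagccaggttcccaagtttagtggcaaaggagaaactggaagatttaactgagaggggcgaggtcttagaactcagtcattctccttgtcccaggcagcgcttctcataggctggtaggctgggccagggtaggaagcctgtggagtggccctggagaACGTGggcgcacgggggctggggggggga
Itgb5: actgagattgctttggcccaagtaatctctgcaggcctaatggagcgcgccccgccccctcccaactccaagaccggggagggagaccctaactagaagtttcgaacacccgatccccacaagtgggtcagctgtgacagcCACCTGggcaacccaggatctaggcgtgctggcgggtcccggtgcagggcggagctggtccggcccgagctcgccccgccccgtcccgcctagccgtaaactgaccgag
In Spp1 the E-box, read as CAGGTG, begins at base -98 from the start, and in Itgb5 it is read as CACCTG and begins at -109. In Cd44 the match is to ACGTG, at -29. Over all 32851 windows of this length, 17.2% held CACCTG in either orientation, 16.6% held ACGTG and 4.46% held TGACTCA, so each match is common. No match to any of the 3 was found in these windows of Itgav, Itgb1, Itga4 and Itga5, nor at the other start of Spp1. The window listed for Itga9 belongs to a start inside the gene and is not shown. A match is a description of the letters and does not show binding.

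The libraries differed in makeup. In all, 140493626 UMIs over 2220 spots were counted in KPC-shZEB1 and 172059528 UMIs over 3552 spots in KPC-shV. Digestive enzyme genes of acinar cells made up 24.8% of UMIs in KPC-shZEB1 and 1.80% in KPC-shV, and spots with over 20% acinar UMIs numbered 764 and 258. Levels, in UMIs per 1000000 UMIs (CPM), were therefore taken outside these acinar-rich spots, in 1456 spots (median depth 58377 UMIs) and 3294 spots (54913 UMIs). There the median gene stood at -0.02 on the log2 scale of KPC-shZEB1 over KPC-shV, the scale of all ratios between libraries below, against -0.48 over all spots. Zeb1 itself was at 15.6 CPM in KPC-shZEB1 and 12.7 CPM in KPC-shV outside acinar-rich spots, and at 10.8 and 12.4 CPM over all spots. It was thus not lower in KPC-shZEB1 outside acinar-rich spots. These spots also hold host cells, which keep an intact Zeb1, so the level cannot show how much Zeb1 the injected cells had. The paper measured the knockdown in the KPC cells and stained tumors for Zeb1. Directions below are those of the libraries labelled KPC-shZEB1 and KPC-shV. Spot barcodes shared by both libraries numbered 1718, and in mixed spots fewer cells of a type and less RNA per cell cannot be told apart. Intervals cover counting error only, at the 95% level, and spots of 1 section are not replicates. Levels of different genes are not compared, since the number of probes per gene was not known here.

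Between the libraries the ligand and most of its receptors were lower in KPC-shZEB1, with Cd44 clearly more so than Spp1, while Itgb5 and Itga4 were higher. Spp1 was counted at 6904 CPM in KPC-shZEB1 and at 7930 CPM in KPC-shV, a log2 ratio of -0.20 (interval -0.204 to -0.195). Cd44 was at 956 and 1331 CPM, a log2 ratio of -0.48 (-0.49 to -0.47). Both genes were lower in KPC-shZEB1 by far more than counting error, but counting error is not the spread between tumors. Of the 9 members, 6 had a ratio below 0, which held for 51.6% of the 18893 features with at least 100 UMIs, so the direction was not particular to these genes. At a log2 ratio of 1 or more there was 1 member, Itga4, against 3.82% of features, and at -1 or less there was none, against 1.71%.

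Among the alphav chains, Itgav, the common partner, was at 212 CPM in KPC-shZEB1 and 248 CPM in KPC-shV (log2 ratio -0.23). The beta3 and beta5 chains, which are among its partners, went opposite ways. Itgb3, known from platelets, endothelium and osteoclasts, was at 39.7 and 54.8 CPM (-0.46, interval -0.52 to -0.41), and Itgb5, the more widely used partner in epithelium and stroma, at 603 and 377 CPM (0.68, 0.66 to 0.69). Among the beta1 integrins, Itgb1 was at 942 and 1055 CPM (-0.16) and its fibronectin-binding partner Itga5 at 109 and 117 CPM (-0.10). The leukocyte chain Itga4, which also binds Vcam1, was at 27.8 and 12.1 CPM (1.21, 1.12 to 1.29), and Itga9 at 25.7 and 22.1 CPM (0.22, but -0.36 over all spots). The beta1 chain itself thus stood slightly lower beside a leukocyte partner that was higher.

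**Figure D1:**
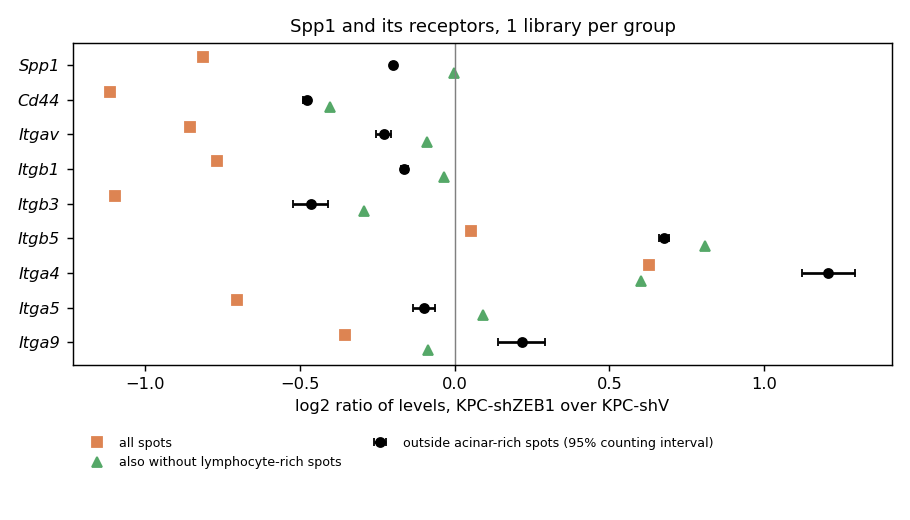
The log2 ratio between libraries, KPC-shZEB1 over KPC-shV, in the level of each gene (horizontal axis) for the 9 genes (vertical axis), outside acinar-rich spots (black circles with 95% counting intervals), over all spots (squares) and with lymphocyte-rich spots also left out (triangles). Cd44 and Itgb3 lie below 0 and Itgb5 and Itga4 above 0 in all 3 settings, while Spp1 moves from -0.81 over all spots to -0.0020 without lymphocyte-rich spots.

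The Spp1 difference depended on which spots were counted and on what Spp1 was set against. Markers of T cells (5 genes) and B cells (4 genes) were at 98.0 and 36.3 CPM in KPC-shZEB1 and at 19.9 and 8.58 CPM in KPC-shV outside acinar-rich spots. When spots in the top 20% of either list were left out, which removed 850 of 1456 spots of KPC-shZEB1 and 657 of 3294 of KPC-shV, the Spp1 log2 ratio was -0.0020 and the Cd44 ratio -0.40. In the same spots Itgb1 was at -0.03, Itgav at -0.09, Itgb5 at 0.81 and Itga4 at 0.60. Thus Spp1 was level between the libraries in the spots left, Cd44 was still lower in KPC-shZEB1, and Itga4 kept the direction with a smaller ratio. Itga5 turned to 0.09 and Itga9 to -0.09. Across spots of KPC-shZEB1 the B cell list ran against Spp1, and a larger part of that library was left out. The filter can thus raise the Spp1 ratio by itself, and why the ratio moved was not tested. Counted per epithelial marker, the picture was similar. The epithelial list (Epcam, Krt8, Krt19, Cdh1, Cldn7, Krt7) was at 6179 CPM in KPC-shZEB1 and 7070 CPM in KPC-shV, a log2 ratio of -0.19, and per 100 UMIs of this list there were 112 Spp1 UMIs in each library (log2 ratio -0.0055). Cd44 still came to 15.5 UMIs per 100 in KPC-shZEB1 and 18.8 in KPC-shV (-0.28), whereas Itgb1 and Itga5 turned to 0.03 and 0.10. Genes of the epithelial list did not share a direction between libraries, with Krt7 at -0.25, Krt8 at -0.08, Cdh1 at 0.06 and Krt19 at 0.27. The ratio per epithelial UMI therefore depends on the weight of each gene in the list. Krt7, the gene most like Spp1 by Pearson's r, was alone at 2430 CPM in KPC-shZEB1 and 2887 CPM in KPC-shV. Leaving out lymphocyte-rich spots and counting per epithelial UMI were both chosen after the data were seen.

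Per spot of at least 20000 UMIs, the ligand spread more widely in KPC-shZEB1. Among spots with at least 20000 UMIs, the level of Spp1 at the 5th percentile was 596 CPM in the 1404 spots of KPC-shZEB1 and 2252 CPM in the 2668 spots of KPC-shV, while at the 95th it was 15370 and 14498 CPM. In these spots the low end thus differed most, and the high ends overlapped. The depth limit left out 626 spots of KPC-shV and 52 of KPC-shZEB1. In the lowest of 5 bins of the epithelial list, where Spp1 was lowest along that list, median depth was 18657 UMIs in KPC-shV and 45991 in KPC-shZEB1. The limit can thus take low Spp1 spots mainly from KPC-shV, and its part in the wider spread was not tested. The median spot was at 5614 and 7358 CPM. Cd44 was shifted along its whole range, from 313 and 551 CPM at the 5th percentile through 853 and 1295 CPM at the median to 1912 and 2287 CPM at the 95th. For Itgb5 the shift ran the other way, with 547 CPM at the median in KPC-shZEB1 and 359 CPM in KPC-shV. Over all spots outside acinar-rich ones, shallow spots included, the 5% of spots highest in Spp1 CPM held 18.4% of its UMIs in KPC-shZEB1 and 13.6% in KPC-shV. For Itgb3 these shares were 25.6% and 17.3%, and for Itga5 23.9% and 11.5%. Spots under 20000 UMIs numbered 52 in KPC-shZEB1 and 626 in KPC-shV. A shallow spot can rank high on few UMIs, so the shares are not comparable between libraries, and the part of depth was not tested.

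**Figure D2:**
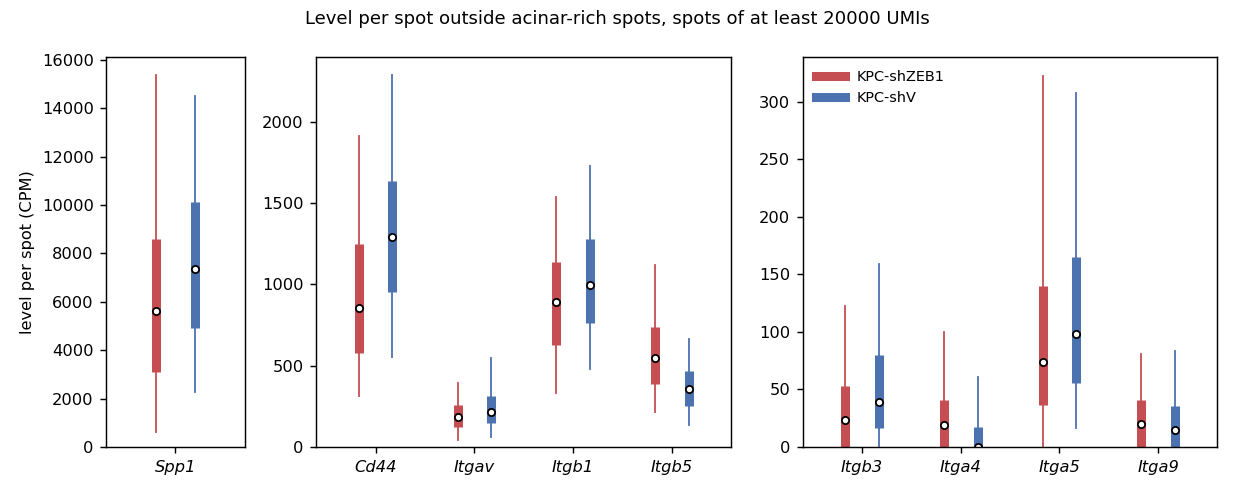
Level per spot in CPM (vertical axis) of each gene outside acinar-rich spots, in spots of at least 20000 UMIs, with a circle at the median, a thick bar from the 25th to the 75th percentile and a thin line from the 5th to the 95th. The lower end of Spp1 reaches 596 CPM in KPC-shZEB1 and 2252 CPM in KPC-shV, and Cd44 is shifted down at every percentile shown. The depth limit leaves out 52 spots of KPC-shZEB1 and 626 of KPC-shV.

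With each spot thinned to 5000 UMIs, so that depth is equal, nearly every spot held ligand and receptor together. Spp1 was found in 98.0% of 1452 spots in KPC-shZEB1 and in 99.7% of 3121 spots in KPC-shV, and Spp1 together with Cd44 in 92.9% and 97.6%. Spots of acinar tissue, in which free RNA and nearby cells can also give UMIs, had Spp1 in 71.5% and 95.1% and the pair in 15.2% and 28.9% (median depths 66360 and 24069 UMIs before thinning). A UMI of Spp1 in a spot therefore says little by itself, and the pair separated tumor from acinar spots through Cd44. The alphav and beta3 chains were found together in 8.75% of spots in KPC-shZEB1 (exact interval 7.34% to 10.3%) and in 15.6% in KPC-shV (14.4% to 17.0%), against 0.131% and 0.813% in acinar-rich spots. Itga4 together with Itgb1 was found in 12.1% (10.4% to 13.8%) and 7.50% (6.60% to 8.48%), against 1.44% and 3.25%. By itself, outside acinar-rich spots, Itgb3 was found in 15.5% and 22.6% of spots and Itgav in 57.1% and 63.4%. Itga4 was found in 12.8% and 7.98%, and Itgb1 in 95.9% and 97.7%. The pair shares thus moved with the scarcer chain, and joint presence beyond that was not tested. Without thinning the shares were higher, and these comparisons between libraries are given at equal depth only.

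Spots were then classed by marker genes. A class held the 20% of spots highest in a list, counted over both libraries together outside acinar-rich spots, so that 1 threshold served both. Epithelial-rich spots numbered 321 in KPC-shZEB1 and 629 in KPC-shV, and macrophage-rich spots (Adgre1, Csf1r, Cd68, C1qa, C1qb, C1qc, Mrc1) 360 and 590. Neutrophil-rich spots (S100a8, S100a9, Csf3r, G0s2) numbered only 62 in KPC-shZEB1 against 888 in KPC-shV, and hypoxia-rich spots (9 genes including Car9, Vegfa and Slc2a1) 59 against 891. In each class 6 of 6 further markers that did not enter the score were higher than in the other spots, in both libraries. No interval was applied to these markers, and some differed little. Ly6g was at 3.70 CPM in neutrophil-rich and 3.47 CPM in other spots of KPC-shV. Sox9 was at 84.5 CPM in epithelial-rich and 82.6 CPM in other spots of KPC-shZEB1. Classes may share spots. Neutrophil-rich and hypoxia-rich spots shared 641 spots in KPC-shV but only 5 in KPC-shZEB1. The neutrophil-rich and hypoxia-rich classes are therefore largely the same spots in KPC-shV and largely different spots in KPC-shZEB1. In KPC-shV 306 of the neutrophil-rich and 379 of the hypoxia-rich spots were also epithelial-rich, and macrophage-rich spots shared 189 spots with the fibroblast-rich class in KPC-shZEB1 and 500 in KPC-shV. Depth moved with the classes, with medians of 26281 UMIs in macrophage-rich, 28182 in neutrophil-rich and 34911 in hypoxia-rich spots of KPC-shV, and its part in the differences was not tested.

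Spp1 was lowest where macrophage genes were highest. In macrophage-rich spots it was at 3106 CPM in KPC-shZEB1 and 3413 CPM in KPC-shV, against 7940 and 8463 CPM in the other spots, so the log2 ratio of class over other spots was -1.35 and -1.31. The libraries agree within 0.05 on this scale. Cd44 was lower there too, at 735 against 1016 CPM in KPC-shZEB1 (-0.47) and 952 against 1376 CPM in KPC-shV (-0.53), as were Itgav (-0.67 and -0.93) and Itgb1 (-0.60 and -0.45). The alpha chains of the cleaved-osteopontin receptors went the other way. Itga4 was at 60.6 CPM in macrophage-rich and 18.9 CPM in other spots of KPC-shZEB1 (1.68), and at 44.8 and 8.19 CPM in KPC-shV (2.45). Itga9, known from macrophages, neutrophils, endothelium and muscle, was at 46.3 and 20.1 CPM (1.21) and at 57.5 and 17.9 CPM (1.68). Itga5 was higher in this class as well, slightly in KPC-shZEB1 (0.10) and more in KPC-shV (0.98). Thus 3 of 9 members were higher in macrophage-rich spots of both libraries with an interval above 0, against 22.7% of features, and 4 were lower, against 27%. Itgb5 had opposite signs (-0.30 and 0.55). The same spots held 2140 and 2724 CPM of the epithelial list, against 6179 and 7070 CPM in all spots outside acinar-rich ones, and 18137 and 27529 CPM of the fibroblast list against 8106 and 6518 CPM, and the acinar list was at 16240 and 7238 CPM against 6538 and 1922 CPM. Low Spp1 was not particular to macrophage-rich spots. In fibroblast-rich spots, classed in the same way, it was at 3999 CPM in KPC-shZEB1 (-0.91) and 3492 CPM in KPC-shV (-1.28). In endothelial-rich spots it was at 3526 CPM (-1.06) and 5633 CPM (-0.58). The higher Itga4, Itga9 and Itga5 were not particular to macrophage-rich spots either. In fibroblast-rich spots their ratios were 0.93 and 2.27 for Itga4, 1.23 and 1.66 for Itga9, and 0.71 and 1.08 for Itga5. In endothelial-rich spots the ratios were 1.05 and 1.61 for Itga4, 1.18 and 1.45 for Itga9, and -0.02 and 0.78 for Itga5. The low Spp1 is set against the epithelial and fibroblast lists further on, and the part of acinar RNA was not tested.

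**Figure D3:**
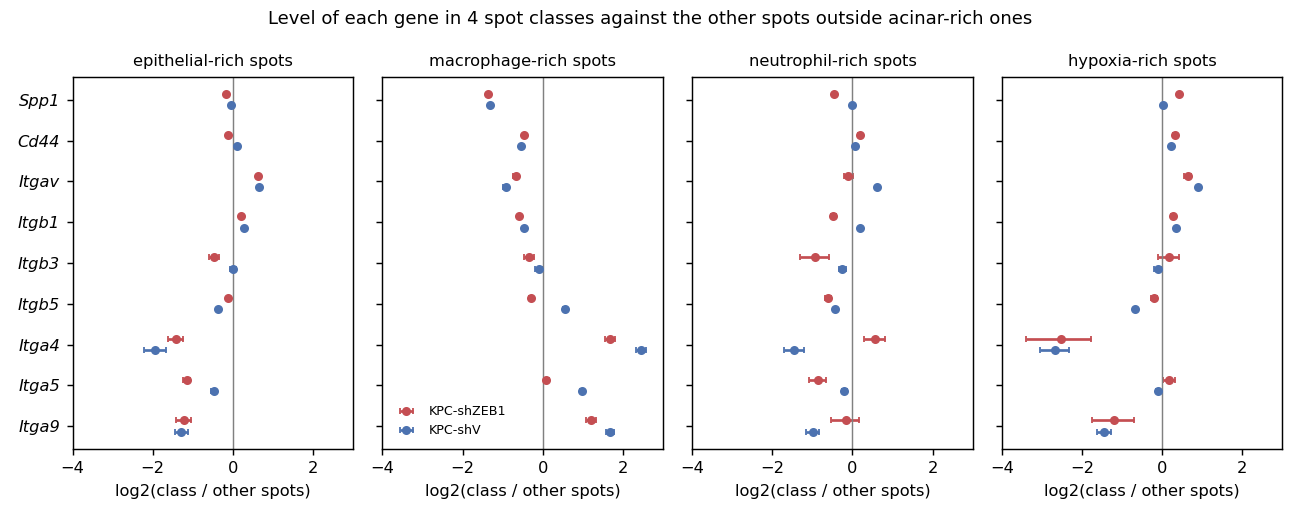
Log2 ratio of the level in a spot class over that in the other spots outside acinar-rich ones (horizontal axis) for the 9 genes (vertical axis), in KPC-shZEB1 and KPC-shV, with 95% counting intervals. Spp1 and Itgav lie left of 0 and Itga4 and Itga9 right of 0 in macrophage-rich spots, and Itga4 lies on opposite sides in neutrophil-rich spots (0.56 and -1.45).

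Epithelial-rich spots held more of the alphav and beta1 chains but no more ligand. Itgav was at 288 CPM in the class and 184 CPM in other spots of KPC-shZEB1 (0.64), and at 354 and 223 CPM in KPC-shV (0.67). Itgb1 was at 1050 and 903 CPM (0.22) and at 1227 and 1013 CPM (0.28). These were the 2 of 9 members higher in both libraries, against 13.1% of features. Spp1 was at 6330 CPM in epithelial-rich and 7112 CPM in other spots of KPC-shZEB1 (-0.17). In KPC-shV it was at 7723 and 7979 CPM (-0.05, but 0.03 among spots in only 1 of the 4 main classes). Cd44 had opposite and small ratios (-0.11 and 0.11). Lower in both libraries were 5 members, against 21.5% of features, namely Spp1, Itgb5 (-0.12 and -0.37), Itga5 (-1.15 and -0.48), Itga4 (-1.42 and -1.93) and Itga9 (-1.23 and -1.28). The alpha4, alpha5 and alpha9 chains were thus lower in epithelial-rich than in other spots, and their beta1 partner was higher.

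Hypoxia-rich spots held more Cd44, Itgav and Itgb1, with Spp1 clearly higher in KPC-shZEB1 alone. Cd44 was at 1182 CPM in the class and 949 CPM in other spots of KPC-shZEB1 (0.32), and at 1504 and 1291 CPM in KPC-shV (0.22). Itgav was at 322 and 208 CPM (0.63) and at 395 and 214 CPM (0.88), and Itgb1 had ratios of 0.28 and 0.33. Spp1 was at 9084 and 6830 CPM in KPC-shZEB1 (0.41), but at 7988 and 7916 CPM in KPC-shV, a ratio of 0.01 that turned negative with a stricter class (-0.25 in the top 10% of spots). In both libraries 4 members were higher with an interval above 0, against 9.99% of features, and 3 were lower, against 14.3%. Those higher were Cd44, Itgav, Itgb1 and Spp1, and Spp1 was counted on its ratio of only 0.01 in KPC-shV. Those lower were Itgb5 (-0.21 and -0.67), Itga9 (-1.21 and -1.45) and Itga4, which was at 4.97 against 28.6 CPM in KPC-shZEB1 (-2.53) and 2.24 against 14.3 CPM in KPC-shV (-2.68). The Itga4 level in this class rests on 14 and 70 UMIs. With 59 spots the class is small in KPC-shZEB1, and the epithelial list was at 9211 and 9070 CPM in it.

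In neutrophil-rich spots the ligand was lower in KPC-shZEB1 and about level in KPC-shV. Spp1 was at 5044 CPM in the class and 6976 CPM in other spots of KPC-shZEB1 (-0.47). In KPC-shV it was at 7854 and 7945 CPM (-0.02, but 0.28 among spots in only 1 of the 4 main classes). Cd44 was at 1091 and 951 CPM (0.20) and at 1372 and 1323 CPM (0.05), so the receptor was slightly higher in this class in both libraries. It was the 1 member of 9 to be so, against 3.87% of features. In KPC-shZEB1 this did not hold in the top 10% of spots, where only 11 of its spots were left (-0.50). In KPC-shV it did not hold among spots in only 1 of the 4 main classes (-0.18) or without spots under 20000 UMIs (0.0099, interval -0.0047 to 0.025). Lower in both were 4 members, against 6.85% of features, namely Spp1, Itgb3 (-0.94 and -0.26), Itgb5 (-0.61 and -0.43) and Itga5 (-0.87 and -0.20). Itgav was at 349 CPM in the class and 228 CPM in other spots of KPC-shV (0.61), with -0.10 in KPC-shZEB1. Itga4 had opposite signs, with 40.3 against 27.3 CPM in KPC-shZEB1 (0.56) and 4.94 against 13.5 CPM in KPC-shV (-1.45). The neighbours of neutrophils differed as well. The macrophage list was at 3368 CPM and the T cell list at 128 CPM in neutrophil-rich spots of KPC-shZEB1, against 863 and 10.7 CPM in those of KPC-shV, while the hypoxia list was at 1130 and 4087 CPM. Their part in the Itga4 and Spp1 differences was not tested. As the count over all features includes many with few UMIs, whose intervals seldom leave 0, these background shares are lower than for features as deeply counted as the members.

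The libraries were also set side by side within a class, whose spots share a lower limit on 1 list but not their marker content. In neutrophil-rich spots, for example, the neutrophil list was at 689 CPM in KPC-shZEB1 and 1105 CPM in KPC-shV, and in macrophage-rich spots the fibroblast list was at 18137 and 27529 CPM. The part of these differences in the ratios was not tested. The Spp1 log2 ratio between libraries was -0.29 in epithelial-rich, -0.14 in macrophage-rich, -0.64 in neutrophil-rich and 0.19 in hypoxia-rich spots, where an equal-weight score of the list genes gave -0.062. Its sign thus depended on the class. Cd44 was below 0 in every one of the 4, at -0.65, -0.37, -0.33 and -0.35, and Itgb3 at -0.83, -0.65, -1.16 and -0.21, the last with an interval that includes 0 (-0.48 to 0.056). Itga4 was above 0 in all 4, from 0.44 in macrophage-rich to 3.03 in neutrophil-rich spots. Itgb5 was at 0.89 in epithelial-rich, 1.04 in hypoxia-rich and 0.45 in neutrophil-rich spots, but at -0.05 in macrophage-rich spots. Itgb5 was thus not higher in KPC-shZEB1 within macrophage-rich spots. It was at 0.19 in endothelial-rich and 0.46 in fibroblast-rich spots, so a small ratio was not particular to the macrophage-rich class.

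Ordering all spots into 5 bins of each list showed where the ligand changed. Along the epithelial list, Spp1 was lowest in the lowest bin, at 5254 CPM in KPC-shZEB1 and 4041 CPM in KPC-shV, stood at 8621 and 7416 CPM in the next bin, at 7374 and 8589 CPM in bin 3, at 7430 and 8720 CPM in bin 4, and at 6330 and 7723 CPM in the highest. The widest gap between neighbouring bins was that above the lowest bin in both libraries, and the highest value fell in bin 2 in KPC-shZEB1 and in bin 4 in KPC-shV. Along the macrophage list the first bins were flat and the drop came late in KPC-shZEB1, whereas in KPC-shV the level fell step by step from bin 3 on. In KPC-shV Spp1 was at 9145, 9376, 8275, 6135 and 3413 CPM from the lowest to the highest bin, and in KPC-shZEB1 at 8094, 8094, 8087, 7712 and 3106 CPM. Along the hypoxia list it went from 3868 to 9084 CPM in KPC-shZEB1 and from 5454 to 9845 CPM in bin 4 of KPC-shV, then to 7988 CPM in bin 5. Along the neutrophil list it was lower bin by bin toward the top in KPC-shZEB1 except for bin 4, from 7435 to 5044 CPM, and in KPC-shV it lay between 7243 and 8669 CPM. Cd44 was at 634 and 678 CPM in the lowest epithelial bin, against 1091 and 1219 CPM in the next, and along the neutrophil list it stayed between 922 and 1091 CPM in KPC-shZEB1 and between 1280 and 1372 CPM in KPC-shV. Cd44 was lower in KPC-shZEB1 in all 20 bins of the 4 lists, while the sign of the Spp1 ratio varied among bins, from -0.64 to 0.38.

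**Figure D4:**
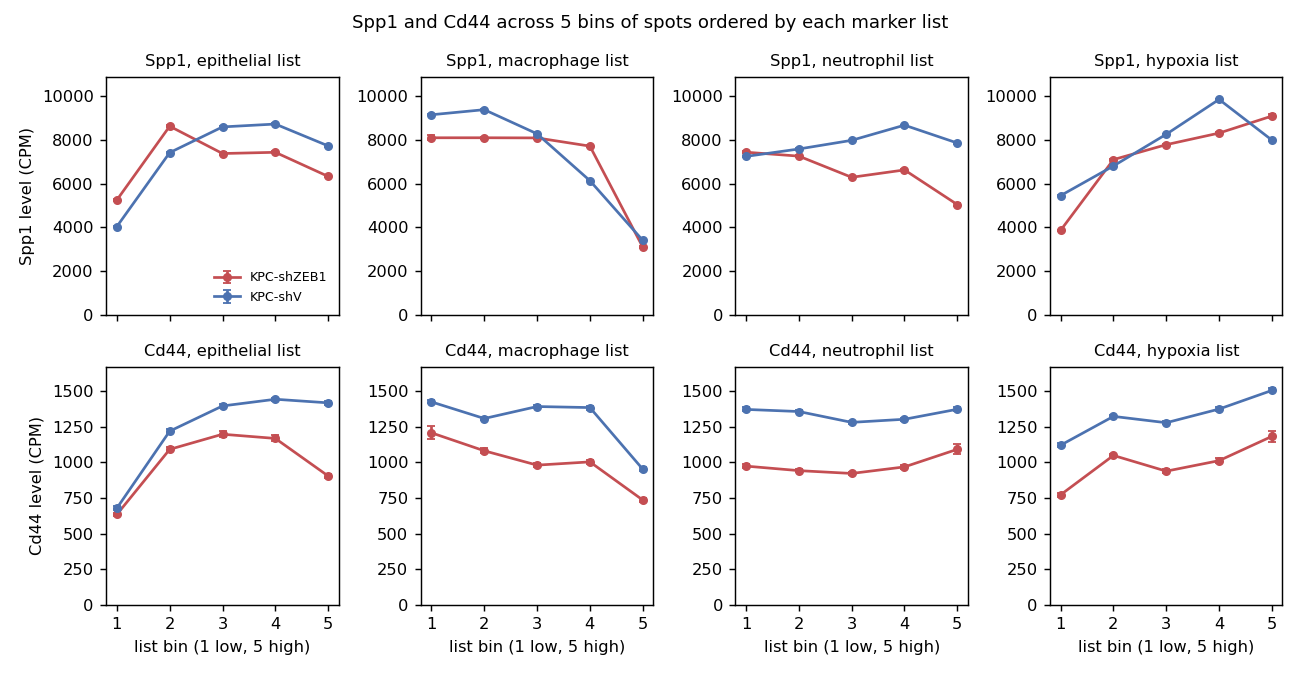
Level in CPM (vertical axes, from 0) of Spp1 (upper row) and Cd44 (lower row) in 5 bins of spots ordered by the epithelial, macrophage, neutrophil and hypoxia lists (horizontal axes), with bin limits common to both libraries and 95% counting intervals. Spp1 drops in the highest macrophage bin of both libraries (3106 and 3413 CPM), and the Cd44 line of KPC-shZEB1 lies below that of KPC-shV in every bin.

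Within bins, Spp1 differed most between macrophage parts where epithelial genes were scarce or fibroblast genes abundant. Spots of each epithelial bin were split at the median of the macrophage list, a step chosen after the data were seen. This median is that of the bin in each library, so an upper part need not be macrophage-rich. Only 4 epithelial-rich spots of KPC-shZEB1 and 1 of KPC-shV were also macrophage-rich. The highest epithelial bin therefore cannot show how Spp1 stood in macrophage-rich spots. In the lowest epithelial bin Spp1 was at 2084 CPM in the upper and 8193 CPM in the lower macrophage part of KPC-shZEB1 (log2 ratio -1.97), and at 2064 and 5917 CPM in KPC-shV (-1.52). The libraries differed in how soon the gap between parts narrowed. In epithelial bin 2 the ratio was -0.35 in KPC-shZEB1 and -1.10 in KPC-shV, and in bin 3 it was -0.15 and -0.43. In the highest epithelial bin the parts differed little, with 6554 and 6091 CPM (0.11) and 7559 and 7917 CPM (-0.07). The lowest epithelial bin is wide, so its parts may also differ in epithelial content, which was not tested. Within fibroblast bins the order was reversed. Fibroblast bin 4 had a ratio of -1.02 in KPC-shZEB1 and -0.47 in KPC-shV. In the highest fibroblast bin the upper and lower macrophage parts were at 1942 and 5830 CPM in KPC-shZEB1 (-1.59) and at 2408 and 4360 CPM in KPC-shV (-0.86), while in the lowest they were at -0.15 and 0.09. For Cd44 the parts differed by at most 0.22 in size on the log2 scale within any epithelial bin, but in the highest fibroblast bin the upper part was lower, at -0.46 in KPC-shZEB1 and -0.54 in KPC-shV.

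**Figure D5:**
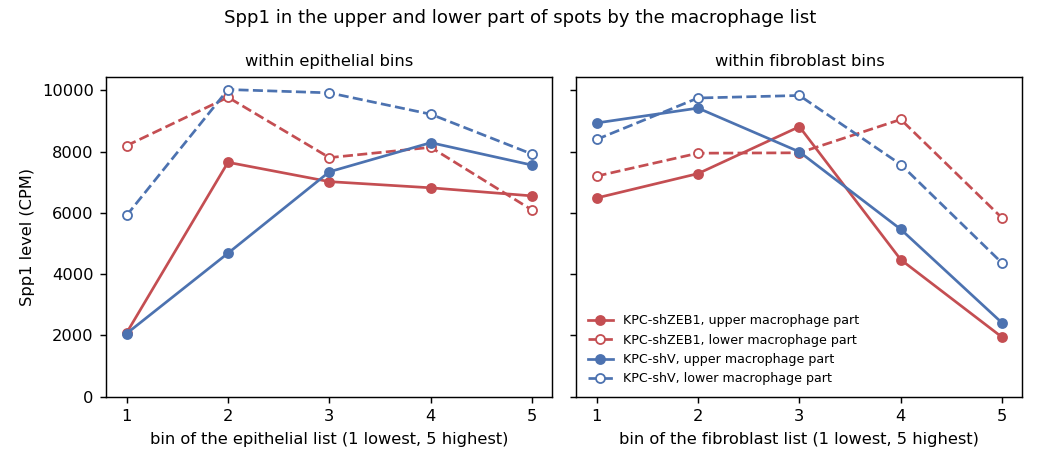
Spp1 level in CPM (vertical axis, from 0) in the upper (filled circles, solid lines) and lower (open circles, dashed lines) part of spots by the macrophage list, within 5 bins of the epithelial list (left) and of the fibroblast list (right). The parts lie far apart in the lowest epithelial bin (2084 against 8193 CPM in KPC-shZEB1) and close together in the highest.

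Neutrophil genes were set against the hypoxia list in the same way. Within hypoxia bins, Spp1 in the upper against the lower neutrophil part had log2 ratios from -0.24 to 0.21 in KPC-shZEB1 and from -0.38 to 0.12 in KPC-shV. The ratio of -0.38 was that of the highest hypoxia bin of KPC-shV, with 6518 CPM in 445 spots against 8481 CPM in 446 spots. Cd44 had ratios between -0.29 and 0.01 in KPC-shV. In KPC-shZEB1 it lay between -0.13 and 0.09 in bins 1 to 4 and at -0.68 in bin 5, where 29 spots stood against 30. Within no hypoxia bin, then, was the upper part higher than the lower in Spp1 or Cd44 by over 0.21 on this scale. An upper part need not be neutrophil-rich, and a lower part may be. Only 62 of 1456 spots of KPC-shZEB1 were neutrophil-rich, whereas 641 of the 891 hypoxia-rich spots of KPC-shV were. The split therefore cannot show how Spp1 and Cd44 stood in neutrophil-rich spots at a given hypoxia level.

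Across spots, the ligand went with some of its receptors more than with others. Pearson's r of log2(CPM + 1) between Spp1 and Cd44 was 0.43 over 1456 spots in KPC-shZEB1 and 0.33 over 3294 spots in KPC-shV. With Itgav it was 0.48 and 0.44, with Itgb1 0.56 and 0.35, and with Itgb5 0.49 and 0.19. Itga4 went against Spp1 (-0.28 and -0.22), and Itga9 did weakly (-0.10 and -0.09). The spots of a library share its section and depth, and shallow spots weigh on r. Spp1 itself had r = 0.50 and 0.48 with the UMIs of a spot. Among spots of at least 20000 UMIs, r between Spp1 and Cd44 was 0.40 and 0.14, and with Itgb5 0.45 and 0.02, so the values in KPC-shV rest in good part on shallow spots. Of the lists, Spp1 had its highest r with the epithelial list (0.62 and 0.67), and its lowest with the B cell list in KPC-shZEB1 (-0.61) and with the fibroblast list in KPC-shV (-0.52). By ranks this order did not hold throughout, since Spearman's rho in KPC-shZEB1 was 0.31 with the epithelial and 0.43 with the hypoxia list, and in KPC-shV it was lowest with the macrophage list (-0.49). The neutrophil list had r = -0.07 and 0.18 with Spp1, and -0.02 and 0.20 with Cd44. Itgb3, which platelets also carry, had r = -0.02 and 0.03 with a platelet and megakaryocyte list. Itga4 had r = 0.52 and 0.46 with the macrophage list and 0.38 and 0.33 with the T cell list.

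The genes most like each member were ranked by the lower of the r values of both libraries, among 4204 features with at least 50 CPM in each. For Spp1 these were Krt7, Cldn2, Wfdc2, Prom1, Cdh1, Krt19, Krt8, Itga3, Tspan8 and Lad1, with r from 0.57 to 0.67, most of them known from ductal and other epithelia. For Cd44 they included Anxa2, Lama3, Krt7, Cdkn2a, Pkm, Sdc1, Cdh17, Prss22 and Igf2bp2, with r from 0.45 to 0.54. Lama3 encodes a laminin chain of the basement membrane, and Sdc1 a cell surface proteoglycan. The ranking depended on the measure. By Spearman's rho, 0 of the 10 genes for Spp1 and 3 of the 10 for Cd44 were the same, and among spots of at least 20000 UMIs 2 and 1 were. Leading for Spp1 by rho were Nedd4, Zcchc14 and Paics, with Cdkn2a and Tsc22d1 following, none of which is in the epithelial list. For the integrins, Itgav had Anxa2, Dstn and Serpinb6a nearest (r from 0.53 to 0.56), Itgb1 had Dstn, Tpt1 and Mtpn, Itgb3 had Lamb1, Thbs1 and Tuba1a, and Itgb5 had Mlec, Cyb5r3 and Nedd4. Itga4 had the antigen presentation genes Cd74 and H2-Eb1 and the serpin Serpina3g (r from 0.44 to 0.48), Itga5 had Timp1, Lgals1 and Bmp1, and Itga9 had Sparc, C1qa and Col1a1. By Pearson's r over these spots, Itga4, Itga5 and Itga9 thus stood nearest to immune and matrix genes. Itgav and Itgb1 stood nearest to genes of broad use, with r of at most 0.60. By Spearman's rho, and likewise among spots of at least 20000 UMIs, Itgb1 and Itgb5 kept 0 of their 3 genes. Itgav and Itga4 kept 1, and Itga5 and Itga9 kept 2. By rho Itgb1 had Dynll1 nearest (0.70 and 0.62), and Itgav had Anxa2, Krt7 and Itgb1.

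Other genes of the pathway, taken from lists, gave no common direction between libraries. Of 19 other ligands of these receptors, 9 had a log2 ratio below 0 and the median was 0.16. The list held 1 gene at 1 or more, Edil3, at 9.81 and 3.34 CPM (1.56), named after its value was seen. Fn1, the fibronectin ligand of alpha5-beta1, was at 1912 and 2555 CPM (-0.42), and Vcam1, a ligand of Itga4 pairs, at 234 and 131 CPM (0.84). Of 11 genes of hyaluronan synthesis and breakdown, which concern the other ligand of Cd44, 6 were below 0 (median -0.02), and Has3, a hyaluronan synthase, was at 5.67 and 14.7 CPM (-1.37). Of 6 genes listed as other beta chains, 2 were below 0 and 3 were at 1 or more, against 3.82% of features. Among these 3 was Itgb8, at 7.58 and 3.69 CPM (1.04). Another was Itgbl1, a beta-like gene rather than an integrin chain, at 3.54 and 1.39 CPM (1.35). Both were named after their values were seen. The most abundantly counted of the 3, Itgb7, the lymphocyte partner of Itga4, was at 54.8 and 18.5 CPM (1.56), beside the higher Itga4 in the same library. Of 14 other alpha chains, 6 were below 0 (median 0.14). Itga3, a laminin receptor chain that was among the genes most like Spp1, was at 240 and 503 CPM (-1.07). Itgae, which pairs with Itgb7 on tissue T cells, was the only chain of this list at 1 or more, at 3.87 and 0.949 CPM (2.03), and was named after its value was seen.

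Among 11 proteases that cut osteopontin or Cd44, 5 were below 0 (median 0.17). Mmp3, a matrix metalloproteinase, was at 69.1 and 31.3 CPM (1.14), and Plau, the urokinase plasminogen activator, at 72.4 and 164 CPM (-1.18). Of 18 adaptors that tie integrins or Cd44 to the cytoskeleton, 10 were below 0 (median -0.18), with paxillin (Pxn) at 20.3 and 48.4 CPM (-1.25) and Parvb, a partner of integrin-linked kinase, at 39.5 and 86.8 CPM (-1.14). The median over the 9 members was -0.16, and over all features -0.01. None of these differences has a replicate check, and the ratios within lists spread on both sides of 0.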

How the data were processed

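Visium CytAssist sections of KPC-shZEB1 and KPC-shV tumors were analysed, with 1 library per group. The authors deposited UMI counts for every gene in each spot over tissue, without normalization. Per the submitters' processing notes, Space Ranger 2.0.1 and mm10 were used. From these counts, levels in CPM and log2 ratios with exact 95% intervals (counting error only) were computed in Python 3.11.15 with numpy 2.4.6 and scipy 1.17.1. No test was possible with 1 library per group.

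The members and lists were chosen with earlier results of these data known. List genes not analysed here were Krt18 (epithelial, 6 of 7 used), 1 of 10 hypoxia genes and 9 of 35 acinar genes, and 4 older symbols were matched through RefSeq synonyms. Genes were named if they were members, list genes read beside a member, the most alike genes (10 for Spp1 and Cd44, 3 for each integrin), or pathway genes at a log2 ratio of at least 1 in size with at least 10 CPM. Of the genes most like Cd44, 1 is not reported here.

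Alternatives were all spots, an acinar limit of 5%, median-of-ratios scaling, mean of spot CPM, without the top 5% of spots, without spots under 20000 UMIs, a mean over hypoxia bins and, for classes, the top 10%, the top 20% per library, an equal-weight score and spots of only 1 class. Spots of only 1 class were judged by the 4 main classes (epithelial, macrophage, neutrophil and hypoxia), and may still be fibroblast-rich or endothelial-rich. Chosen after seeing the data were the setting without lymphocyte-rich spots, the ratio to epithelial UMIs and the split of bins at a list's median. Gene windows were read from the RefSeq table of GRCm38.p6. The computation was tested on simulated data of KPC-shZEB1 and KPC-shV over 19465 genes, in which 200 of 200 changed genes came out in the right direction and 95.4% of 12768 intervals held the true value. For these values each simulated library was drawn from a mean profile, without variation between regions or tumors. The simulation therefore covers counting error only, and changes as small as that of Spp1 were not set in it.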

Additional observations from a re-analysis of the deposited data

Results flagged for a closer look

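Itga4 in neutrophil-rich against other spots had a log2 ratio of 0.56 in KPC-shZEB1 and of -1.45 in KPC-shV, with both counting intervals away from 0. The libraries thus went in opposite directions under the same contrast. The difference was not tested, since there is 1 library per group, and the KPC-shZEB1 value rests on 128 UMIs in 62 spots.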

How the results depend on the processing

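No paired analysis was possible because each group has 1 library. Outside acinar-rich spots, Spp1 (-0.20) was at -0.81 over all spots, -0.18 with an acinar limit of 5%, -0.18 with median-of-ratios scaling, -0.11 as a mean of spot CPM, -0.30 without the top 5% of spots, -0.22 without spots under 20000 UMIs, -0.12 as a mean over hypoxia bins and -0.0020 without lymphocyte-rich spots. Cd44 (-0.48) was at -1.11 over all spots, -0.46 with median-of-ratios scaling, -0.51 without the top 5% of spots, -0.42 over hypoxia bins and -0.40 without lymphocyte-rich spots. Over all spots Itga9 reversed to -0.36. Without lymphocyte-rich spots Itga5 reversed to 0.092 and Itga9 to -0.085. The cause of these changes was not tested. The count of members below 0, which was 6, was 7 over all spots and 6 under the other alternatives run.

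Spp1 within epithelial-rich spots (-0.29) was at -0.20 in the top 10%, -0.30 in the top 20% per library, -0.33 with an equal-weight score and -0.36 in spots of only 1 class. Within macrophage-rich spots (-0.14) the same settings gave -0.47, -0.35, -0.0073 and -0.11. Within neutrophil-rich spots (-0.64) it was at -2.24 in the top 10% (11 and 464 spots), -0.23 in the top 20% per library, -0.60 in spots of only 1 class and -0.52 without spots under 20000 UMIs. Within hypoxia-rich spots (0.19) it reversed to -0.062 with an equal-weight score and was at 0.28 in spots of only 1 class and 0.043 without spots under 20000 UMIs. Members higher in neutrophil-rich spots of both libraries (1) numbered 0 in the top 10%, 2 in the top 20% per library, 0 in spots of only 1 class and 0 without spots under 20000 UMIs; no test underlies these counts.

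Of 359 class ratios under alternatives, 15 reversed. Itga4 had no UMI in the top 10% of hypoxia-rich spots of KPC-shZEB1 and gave no value there. In epithelial-rich spots of KPC-shV these were Spp1 at 0.029 (spots of only 1 class) and Cd44 at -0.0079 (top 10%). In neutrophil-rich spots of KPC-shV they were Spp1 at 0.038 (equal-weight score), 0.28 (only 1 class) and 0.12 (without spots under 20000 UMIs), Cd44 at -0.18 and Itgb1 at -0.057 (both only 1 class), and in those of KPC-shZEB1 Cd44 at -0.50 and Itga5 at 0.047 (both top 10%). In hypoxia-rich spots of KPC-shV they were Spp1 at -0.25 (top 10%) and -0.10 (top 20% per library) and Itga5 at 0.13 (only 1 class), and in those of KPC-shZEB1 Itgb5 at 0.0099 and Itga5 at -0.015 (top 20% per library) and Itga5 at -0.0075 (without spots under 20000 UMIs).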
